A study of Mus musculus with 51 samples.

Results

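Glycolysis and hypoxia response genes were examined as a group of 37 named genes among the 50600 gene IDs of the deposited count tables, in neutrophils of 4 mouse tissues and in a cultured neutrophil line. The group was taken as listed, by gene symbol, and holds 2 glucose transporters, 3 hexokinases, 7 enzymes of upper glycolysis, 2 bifunctional regulators of phosphofructokinase, 6 enzymes of lower glycolysis, 3 genes of lactate production and export, 1 pyruvate dehydrogenase kinase, 3 genes of the HIF oxygen sensor and 10 further hypoxia targets. Open chromatin sites within 50 kb of each gene start were described beside the RNA. The tissue samples were Ly6G+ neutrophils sorted from CX3CR1GFP Ly6GCre-tdTomato reporter mice that had received 100 µg zymosan, a yeast cell wall particle, in a dorsal air pouch 6 days old. At 4 h after the challenge, RNA libraries were made from exudate (5), blood (5), bone marrow (3) and membrane lining the pouch (2), and 2 ATAC-seq libraries were made per tissue. Every tissue came from challenged mice, so zymosan itself was not compared in vivo.

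The cultured cells were ER-Hoxb8 neutrophils, progenitors held in an immature state by an estrogen-regulated Hoxb8 and matured for 5 days with G-CSF after its withdrawal. Each group has 2 RNA libraries, made after 2 h with zymosan at 50 µg/ml or with the solvent DMSO. In set 1 were wild-type cells and lines labelled CEBPB-/- and JUNB-/-, set 2 held wild-type cells and lines labelled IRF5-/- and RELB-/-, and a later table held lines labelled RUNX1-/- and KLF6-/- with DMSO only, beside the set 2 wild type. The labels do not say whether the 2 libraries of a group came from separate cultures or whether a line was 1 clone, so p-values measure only the spread between these libraries.

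Glycolysis splits glucose into pyruvate in the cytosol, and neutrophils, which carry few mitochondria, draw most of their ATP from it and release lactate. The transcription factor HIF-1 is held down when oxygen is present: prolyl hydroxylases of the Egln family mark its alpha subunit for destruction through VHL. When oxygen falls, or when inflammatory signals raise Hif1a transcription, HIF-1 binds DNA with the core ACGTG or GCGTG and raises glucose transporters, glycolytic enzymes, Vegfa, Bnip3, the collagen hydroxylase P4ha1 and Ankrd37, many of which belong to the group described here.

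Promoters of 34 of the 37 members were matched to RefSeq (GRCm38.p6), as 50 windows from 250 bases before to 50 bases after a transcript start. The letters ACGTG or GCGTG, on either strand and with overlapping matches counted, stood in a promoter of 31 of these 34 members (91.2%), against 46.7% of the 27025 genes with a promoter in the same table. By promoter, 39 of 50 (78%) held a match against 43.8% of 32851, with 54% against 19.6% for ACGTG and 56% against 32.4% for GCGTG. Member promoters also held more G and C, with a median of 62.2% against 52.7% and a median of 20.5 CG pairs against 7, and the part of base composition in these shares was not tested. The members without a match were Eno2, Tpi1 and Gpi1, which says only that these letters are not in their windows. A match is a description of the letters and not a measured binding site. The 6 windows printed here are those of Ankrd37 and P4ha1, whose promoters overlapped a site of differing openness, and of 4 members that rose in cultured cells after zymosan. They are written 5′ to 3′ on the gene's strand, with matches in capitals; where a match sits on the opposite strand its complement CACGT or CACGC is in capitals, and CACGTG holds a match on each strand.
Ankrd37, chr8:45999801-46000100, minus strand: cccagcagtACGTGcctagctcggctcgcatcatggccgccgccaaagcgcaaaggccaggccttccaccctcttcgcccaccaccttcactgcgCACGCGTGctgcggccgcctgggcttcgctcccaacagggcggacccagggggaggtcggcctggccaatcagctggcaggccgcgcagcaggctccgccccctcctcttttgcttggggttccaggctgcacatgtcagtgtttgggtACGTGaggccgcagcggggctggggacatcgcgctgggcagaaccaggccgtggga
P4ha1, chr10:59323046-59323345, plus strand: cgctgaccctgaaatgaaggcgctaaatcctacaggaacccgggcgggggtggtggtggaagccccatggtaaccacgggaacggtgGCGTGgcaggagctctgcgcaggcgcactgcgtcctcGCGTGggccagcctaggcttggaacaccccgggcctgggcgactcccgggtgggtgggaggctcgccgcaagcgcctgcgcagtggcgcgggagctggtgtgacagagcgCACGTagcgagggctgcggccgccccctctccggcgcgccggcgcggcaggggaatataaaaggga
Slc2a1, chr4:119108495-119108794, plus strand: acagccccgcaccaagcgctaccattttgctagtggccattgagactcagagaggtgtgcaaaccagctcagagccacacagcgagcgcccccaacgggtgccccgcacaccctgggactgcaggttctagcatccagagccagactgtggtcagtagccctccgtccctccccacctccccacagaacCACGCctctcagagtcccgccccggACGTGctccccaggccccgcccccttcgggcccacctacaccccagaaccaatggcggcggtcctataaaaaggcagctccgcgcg
Ldha, chr7:46845554-46845853, plus strand: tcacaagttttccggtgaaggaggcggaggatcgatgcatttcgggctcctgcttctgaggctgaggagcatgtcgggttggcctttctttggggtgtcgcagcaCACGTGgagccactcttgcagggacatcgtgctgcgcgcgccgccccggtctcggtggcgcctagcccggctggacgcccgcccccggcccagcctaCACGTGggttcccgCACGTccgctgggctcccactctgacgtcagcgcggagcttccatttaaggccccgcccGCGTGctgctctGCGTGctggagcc
Slc16a3, chr11:120948817-120949116, plus strand: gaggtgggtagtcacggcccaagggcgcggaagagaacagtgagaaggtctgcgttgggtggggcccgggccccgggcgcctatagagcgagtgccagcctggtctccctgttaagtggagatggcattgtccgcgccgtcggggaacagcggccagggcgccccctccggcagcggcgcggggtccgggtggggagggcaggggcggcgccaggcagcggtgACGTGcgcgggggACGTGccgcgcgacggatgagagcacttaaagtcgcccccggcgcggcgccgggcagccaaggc
Hif1a, chr12:73907617-73907916, plus strand: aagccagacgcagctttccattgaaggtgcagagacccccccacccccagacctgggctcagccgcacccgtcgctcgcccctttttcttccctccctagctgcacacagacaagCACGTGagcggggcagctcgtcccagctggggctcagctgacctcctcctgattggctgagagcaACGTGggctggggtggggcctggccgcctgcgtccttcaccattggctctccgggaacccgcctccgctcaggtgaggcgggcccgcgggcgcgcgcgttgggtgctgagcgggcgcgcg
The window of Ldha, the lactate dehydrogenase subunit, held 7 matches, Ankrd37 held 4, P4ha1 and Hif1a 3 each, and Slc2a1 and Slc16a3 2 each.

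Total counts, in megareads (M, read pairs) per library, ran from 9.24 to 19.1 M in tissues, 19.4 to 32.4 M in set 1, 24 to 34.3 M in set 2 and 26.9 to 30.1 M in the later table. Values are CPM (counts per megaread of counted pairs) scaled by TMM within each table, and changes are log2 changes from edgeR's quasi-likelihood test, with a call where the p adjusted over all genes tested (Benjamini-Hochberg) was under 0.05. The spread between libraries of a group, as edgeR's coefficient of variation, was 1.86 among tissue libraries and 0.0278, 0.019 and 0.0196 in sets 1 and 2 and the later table. All 8 neutrophil markers were detected in every tissue, and their sum was 106800 and 154100 CPM in the membrane libraries, below those of blood (189400 to 308900) and bone marrow (202200 to 257700), and 85120 to 344600 in exudate. RNA of the targeted gene was not lower in 3 of the 6 lines: Cebpb differed by 0.05 (adjusted p = 0.503) in the libraries labelled CEBPB-/- with DMSO, and Runx1 and Klf6 were higher by 1.35 and 0.43 in those labelled RUNX1-/- and KLF6-/-. Junb, Irf5 and Relb were lower by log2 changes of -0.85, -0.28 and -1.32 in their lines with DMSO. Such falls were also seen in some lines with other labels: with DMSO Irf5 changed by -1.35 in RELB-/- and -1.28 in JUNB-/-. In IRF5-/- Relb changed by -1.21 and Junb by -0.97. Reads outside a deleted stretch check nothing about a knockout, so each line is named here by its label. Counts came from uniquely mapped reads, so levels of Gapdh, Pgk1, Pgam1, Eno1, Tpi1, Aldoa, Ldha and Bnip3l, which have near-identical copies, are uncertain. In wild-type cells with DMSO, Gapdh stood at 2630 CPM of all counted reads in set 1 and 44.8 in set 2, Pgk1 at 952 and 111, and Ddit4, for which no copy was listed, at 72.5 and 342. The part of the copies in such gaps was not tested, and levels are compared only within a table.

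Between tissues, neutrophils of the inflamed pouch carried more RNA of the glucose transporter Slc2a1 and Hif1a than those of bone marrow in every library. Hexokinase 1 did so as scaled by TMM, while scaled by total counts its membrane and bone marrow libraries overlapped. No member passed edgeR's adjusted test without a block in any of the 6 comparisons. In bulk RNA, fewer cells of a type and less RNA per cell cannot be told apart. Slc2a1, the basal glucose transporter, stood at 118, 47.5 and 43.5 CPM in the 3 bone marrow libraries and at 592 and 393 in the 2 membrane libraries. In exudate it stood at 415, 622, 279, 425 and 230 CPM, and in blood at 278, 366, 79.8, 130 and 67.9. Exudate and membrane lay wholly above bone marrow, and 2 blood libraries reached into the exudate range. Slc2a3, the high-affinity transporter, overlapped among all tissues, from 223 to 504 CPM in blood, 263 to 708 in bone marrow, 277 and 329 in membrane and 205 to 946 in exudate.

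**Figure D1:**
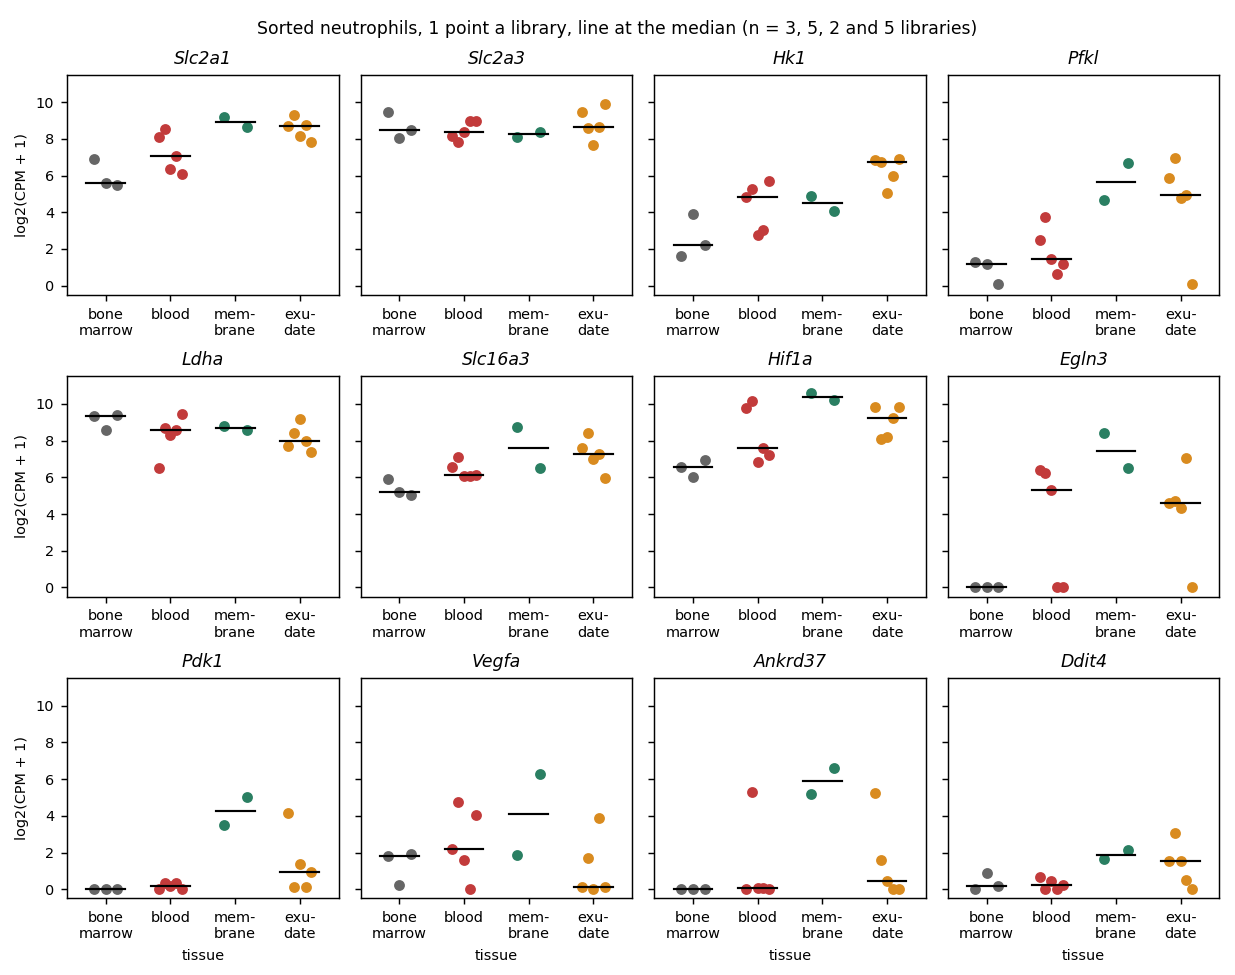
Levels of 12 members in each tissue library, as log2(CPM + 1) on the vertical axis, with 1 point per library and a line at the median of each tissue. Slc2a1, Hk1 and Hif1a of exudate lay above all bone marrow libraries, Egln3 was at 0 reads in all 3 bone marrow libraries, and most other members overlapped.

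Hif1a, the oxygen-regulated HIF-1 subunit, was measured at 94.0, 63.5 and 121 CPM in bone marrow and at 1537 and 1167 in membrane. Exudate held 906, 270, 293, 607 and 905 CPM and blood 876, 1156, 113, 191 and 145. Membrane stood above every other library, and blood split into 2 high and 3 low libraries. Egln3, a HIF prolyl hydroxylase that is itself a HIF target, had 0 reads in all 3 bone marrow libraries, 336 and 88.3 CPM in membrane, 22.9, 25.6, 19.4, 133 and 0 in exudate, and 82.5, 75.6, 38.8, 0 and 0 in blood. A floor of 3 counts over the bone marrow group was set beside these levels. Its mean lay 3679-fold above that floor in membrane, 697-fold in exudate and 683-fold in blood. The floor takes in no spread between libraries, so these folds are no bounds on the difference between tissues. Within exudate and blood the Egln3 libraries ran from 0 upward, so the folds rest on the libraries that held reads.

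Ankrd37, an ankyrin repeat protein, was at 0 in bone marrow, at 35.5 and 97.7 CPM in membrane, at 37.6, 2.07, 0.392, 0 and 0 in exudate and at 39.0 in 1 blood library, with the other 4 below 0.1 CPM. Its mean in membrane lay 1156-fold above the same bone marrow floor. The means of exudate (139-fold) and blood (136-fold) each rest on 1 library, and without it exudate lay 10.7-fold above the floor and blood below the floor. Pdk1, the kinase that brakes pyruvate dehydrogenase, was also at 0 in bone marrow and stood at 10.5 and 32.03 CPM in membrane, as a mean 369-fold above the floor. In exudate Pdk1 held 16.8, 0.0768, 1.57, 0.0891 and 0.918 CPM, 67.6-fold above the floor as a mean that library 1 sets (the mean was 0.663 CPM without it). In blood it stayed at or below 0.285 CPM.

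Among the enzymes, Hk1 stood at 2.11, 13.96 and 3.66 CPM in bone marrow and at 113, 104, 32.4, 60.8 and 119 in exudate, without overlap. Its membrane libraries, at 28.4 and 15.97 CPM, lay below all exudate libraries. Hk2, the inducible hexokinase, held 75.05, 87.1 and 41.7 CPM in bone marrow, 146 and 105 in membrane, 342, 194, 207, 134 and 0.688 in exudate and 107, 40.1, 37.9, 4.96 and 35.9 in blood. The lowest exudate library of Hk2 lay below all other tissues. Pfkl, the liver-type phosphofructokinase that commits sugar to glycolysis, held 1.46, 1.24 and 0.0572 CPM in bone marrow, 24.5 and 101 in membrane and 58.3, 124, 26.9, 29.2 and 0.0765 in exudate. Exudate library 5 again stood apart from the other 4, which lay above every bone marrow and blood library. The bifunctional regulator Pfkfb3, which makes the activator of phosphofructokinase, ran from 1.25 to 26.9 CPM in bone marrow, 0.579 to 134 in blood and 21.7 to 467 in exudate, and held 78.5 and 146 in membrane.

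At the end of the pathway, Ldha held 650, 374 and 671 CPM in bone marrow, 209, 335, 573, 251 and 164 in exudate, 437 and 378 in membrane and 90.8 to 686 in blood, with overlap among all tissues. Slc16a3, the lactate exporter MCT4, held 58.5, 35.5 and 32.3 CPM in bone marrow, 191, 339, 129, 152 and 62.3 in exudate, 421 and 89.2 in membrane and 65.7 to 138 in blood, so that bone marrow lay below every other library. P4ha1 stood at 153 and 14.1 CPM in membrane, at most 0.0883 in bone marrow and 6.92 in blood, and between 0 and 20.6 in exudate. Vegfa, the vascular growth factor, held 2.69 and 76.8 CPM in membrane, 0 to 13.6 in exudate, 0 to 26.3 in blood and 0.177 to 2.80 in bone marrow, and its tissues overlapped. Adm had 0 reads in 14 of 15 libraries, Aldoc and Eno2 in 8 each, and Pfkm and Egln1 in 7 each, and 34 of the 37 members passed the filter on low counts.

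Members whose libraries did not overlap were counted for each pair of tissues, beside the share of all 12330 genes tested. Membrane lay above bone marrow in 19 of 34 members (12.9% of all genes) and below in 1, the mitophagy receptor Bnip3l (18.8%). The 19 were Slc2a1, Hk1, Hk2, Pfkl, Pfkp, Pfkfb3, Tpi1, Gapdh, Pgk1, Pgam1, Slc16a3, Pdk1, Hif1a, Egln3, Bnip3, Ankrd37, P4ha1, Higd1a and Ddit4. With 2 libraries against 3, and with all membrane columns carrying the tag 300 and all bone marrow columns the tag 100, tissue and tag cannot be told apart there. Exudate lay above bone marrow in 5 members, Slc2a1, Hk1, Slc16a3, Pdk1 and Hif1a (3.33%), and below in 1, the isomerase Gpi1 (8.4%). For Pdk1 this rests on 1 read in each of 2 exudate libraries, against 0 in bone marrow. Among columns tagged 100 these counts were 14 (11.6%) and 5 (20.4%). Membrane lay above blood in 9 members, Slc2a1, Pfkl, Pfkp, Pgam1, Pdk1, Hif1a, Egln3, P4ha1 and Ddit4 (5.11%), and below in 1, the myeloid hexokinase Hk3 (7.46%). Within tag 300 these were 15 (13.8%) and 3 (20.2%).

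Between exudate and blood no member was free of overlap in either direction (0.503% of all genes higher and 1.67% lower). Within tag 100 there were 9 members higher (6.52%) and 7 lower (18.5%), and within tag 300 there were 4 (7.28%) and 2 (12.4%). Slc2a1 was the member higher within both tags, and Gpi1 the member lower within both. Blood lay above bone marrow in Slc16a3 (2.17%) and below in Bnip3l (2.81%), with 7 (9.46%) and 1 (7.74%) within tag 100. Exudate lay above membrane in Hk1 (2.04%) and below in Hif1a, Pgk1 and Pgam1 (3.84%), with 1 (7.94%) and 8 (6.61%) within tag 300.

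By edgeR's adjusted test 0 of 34 members were called for blood against bone marrow (0.0162% of all genes), exudate against blood (0%), membrane against blood (0%), exudate against bone marrow (0.178%), membrane against bone marrow (0.0162%) and exudate against membrane (0%). At an unadjusted p under 0.05 the counts were 5, 2, 4, 10, 8 and 0 in that order, against 11.7%, 19.1%, 7.81%, 23.1%, 13.3% and 8.22% of all genes. DESeq2 called 1, 1, 0, 5, 5 and 0 members, against 3.62%, 13.2%, 14.8%, 18.2%, 20% and 11.7% of the genes to which it gave an adjusted p. With a block by the tag and number of the column names, edgeR called Egln3 in blood (0.714% of all genes) and exudate (2.35%) against bone marrow, and Egln3, Ankrd37 and Hif1a in membrane (2.21%). DESeq2's calls were Egln3 in blood against bone marrow, Pfkl in exudate against blood, Slc2a1, Hk1, Pfkl, Egln3 and P4ha1 in exudate against bone marrow, and Slc2a1, Pfkl, Hif1a, Egln3 and P4ha1 in membrane against bone marrow. The median change of the members was 1.11, 0.39, 1.24, 1.01, 2.43 and -0.82, against 0.38, -0.35, -1.74, 0.13, -0.75 and 0.86 over all genes. Within each comparison with bone marrow the largest fitted change was that of Egln3, at 14.56 ± 3.82 (SE, adjusted p = 0.200) in membrane, 12.16 ± 3.49 (adjusted p = 0.100) in exudate and 12.13 ± 3.48 (adjusted p = 0.422) in blood, and with bone marrow at 0 reads these fits are no bounds. At this spread edgeR called 0% of 2-fold and 0% of 8-fold changes in counts simulated for exudate against blood. Markers of monocytes and macrophages moved with the pouch samples, with a summed level of 3.96 to 156 CPM in bone marrow, 111 to 686 in blood, 626 to 872 in membrane and 606 to 930 in exudate. Most of it was Cd68, at means of 96.6, 317, 741 and 777 CPM, and the part of these markers, or of the lower neutrophil sum in membrane, in these results was not tested.

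Open chromatin near the members differed between tissues in both directions. Listed sites were more open in the pouch at Slc2a1, Hk1, Hif1a, Ankrd37 and others. They were only or mostly less open there at Ldha, Slc16a3, Gpi1, Eno1, Pgam1, Pfkl, Gapdh and Vegfa. All 37 had a site in the authors' merged list within 50 kb (63% of all genes did), 324 sites in all, and 33 had one within 1 kb of the start. A site that the authors' deposited lists call different between 2 tissues lay near 25 of the 37 (67.6%), against 46.2% of the 31684 genes with a merged site. Members had a median of 10 merged sites in the window and all such genes 4, and the part of site number in these shares was not tested. Of the 25, 13 (52%) had only sites that were more open in the tissue named first, 5 (20%) only less open and 7 (28%) both, against 45.1%, 39.1% and 15.8% of the 14650 genes with a listed site.

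More open sites in exudate than bone marrow lay near 17 members (45.9%, against 23.7% of genes), and in membrane than bone marrow near 17 (45.9%, against 20.9%). Against blood they lay near 10 members in exudate (27%, against 16.5%) and 11 in membrane (29.7%, against 13.8%), and for blood against bone marrow near 2 (5.41%, against 3.84%). Less open sites lay near 10 members in exudate (27%, against 16.7%) and 8 in membrane (21.6%, against 16.4%) relative to bone marrow. Relative to blood they lay near 6 in exudate (16.2%, against 7.93%) and 3 in membrane (8.11%, against 6.75%), and in blood relative to bone marrow near 1 (2.7%, against 3.29%). The share of members was thus above that of all genes in 9 of the 10 lists.

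**Figure D2:**
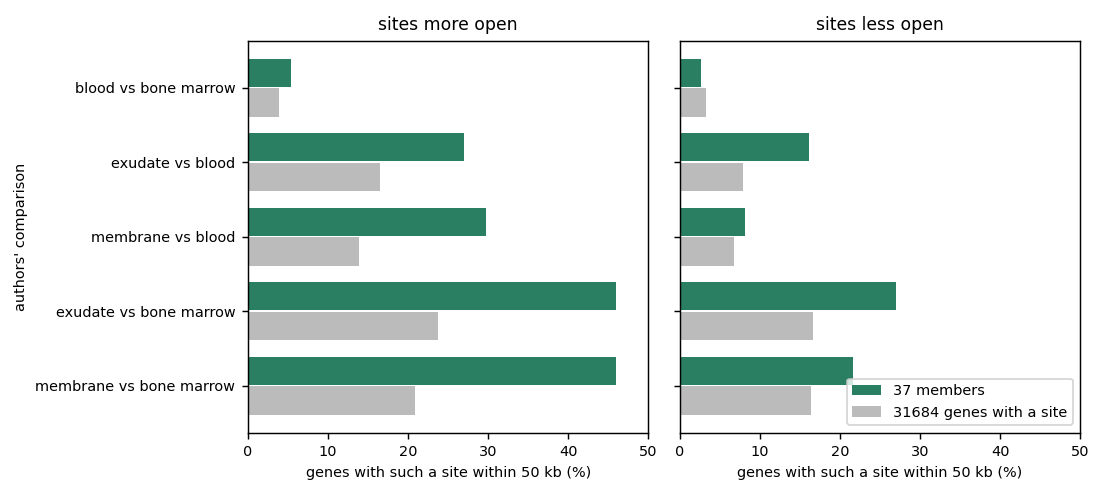
Share of the 37 members and of all 31684 genes with a merged site that have a site listed as more open (left) or less open (right) within 50 kb of the start, in percent, for each pair of tissues. The longest bars are those of the members for exudate and membrane against bone marrow, at 45.9% each.

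Slc2a1 had 5 more open sites and no less open one. The site in its intron at chr4:119125392-119126400 (mm10) had a -log10 adjusted p, as the authors give it, of 9.91 for exudate and 11.8 for membrane against bone marrow. Hk1 had 1 such site, in an intron at chr10:62339143-62339713, listed for all 4 comparisons of pouch with blood or marrow, with -log10 adjusted p values of 5.86 to 10.9. All listed sites of Hk2 (4), Pfkfb3 (5), Egln3 (5) and Pkm (4) were more open. At Hif1a, a site at chr12:73901060-73901617, over the gene start that the count table gives, was more open in exudate than blood (3.50) and in exudate and membrane than bone marrow (7.48 and 2.79), while the site over the RefSeq promoter printed above was in no list. Ankrd37 had a site at chr8:45999788-46000455 that covers the printed promoter and also overlaps the gene Lrp2bp, with 9.78 for membrane against blood, 10.3 for exudate and 16.1 for membrane against bone marrow. The P4ha1 promoter lay in a site at chr10:59322973-59323611 that was more open in membrane than blood, at 8.20, while another site near P4ha1 was less open in exudate and membrane than bone marrow.

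Ldha, Eno1, Gpi1 and Slc16a3 had mostly sites of the opposite direction. A site of Ldha at chr7:46841701-46842388 was less open in exudate and membrane than in blood and bone marrow, with -log10 adjusted p values of 6.53 to 13.6. It is intronic by the gene start of the count table and lies before the RefSeq promoter printed above. The site over that promoter was in no list. Ldha had 3 more less open sites and 1 more open site at chr7:46833175-46834330. An exonic site of the enolase gene Eno1 at chr4:150242661-150243275 was less open in exudate than blood (4.15) and in exudate and membrane than bone marrow (10.4 and 5.93). Of the 34 members with a RefSeq promoter, 32 had a merged site over one (94.1%, against 37.3% of 27025 genes) and 3 a listed one (8.82%, against 3.62%). The 3 were Ankrd37, P4ha1 and Pfkfb3, the last at a second promoter, chr2:11502041-11502340, farther than 50 kb from the gene start of the count table, under a site more open in exudate (5.61) and membrane (7.97) than bone marrow. A site within 50 kb can belong to another gene: the 2 listed sites near Eno2 lay over Ptpn6, and both more open sites near Pgk1 lay over Tlr13.

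In cultured neutrophils, as scaled by TMM, 2 h of zymosan raised most members of the group in wild-type cells of both sets. The rises ran from glucose entry to lactate export, together with Hif1a and its targets. The size of the rises depended on the scaling, and for some members the direction too. In set 1, Aldoa held 61003 of 26.53 M counts in DMSO library 1 and 41612 of 22.24 M in zymosan library 1, a lower share. Its scaled level still went from 1436 to 1903 CPM. Slc2a1, with 15016 and 24080 counts in these libraries, rose either way. Gapdh, with 67279 and 53813 counts, fell in share while its scaled level went from 1584 to 2461 CPM. Pfkl, called 2-fold higher, had 8095 and 9008 counts, a rise in share of less than 2-fold. Scaling by total counts was not tested in any cultured line, so the calls and 2-fold calls given here hold for TMM. In set 1, 29 of 35 members tested rose (35.7% of all genes tested) and 3 fell (39.9%), of which 12 rose at least 2-fold (19.2%) and 2 fell at least 2-fold (17.4%). In set 2, 33 of 35 rose (36.3%) and 2 fell (32.1%), with 26 rising (16%) and 2 falling (13.1%) at least 2-fold. A 2-fold call here needs the adjusted p and a log2 change of at least 1. The median change was 0.86 in set 1 and 1.59 in set 2, against -0.07 and 0.05 over all genes. Eno2 and Adm did not pass the filter on low counts. With zymosan the summed monocyte and macrophage markers went from a median of 1350 to 1522 CPM in set 1 wild type and from 1014 to 1176 in set 2, and the eosinophil and mast cell markers from 1498 to 1307 and from 3409 to 5426. The part of these markers was not tested.

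**Figure D3:**
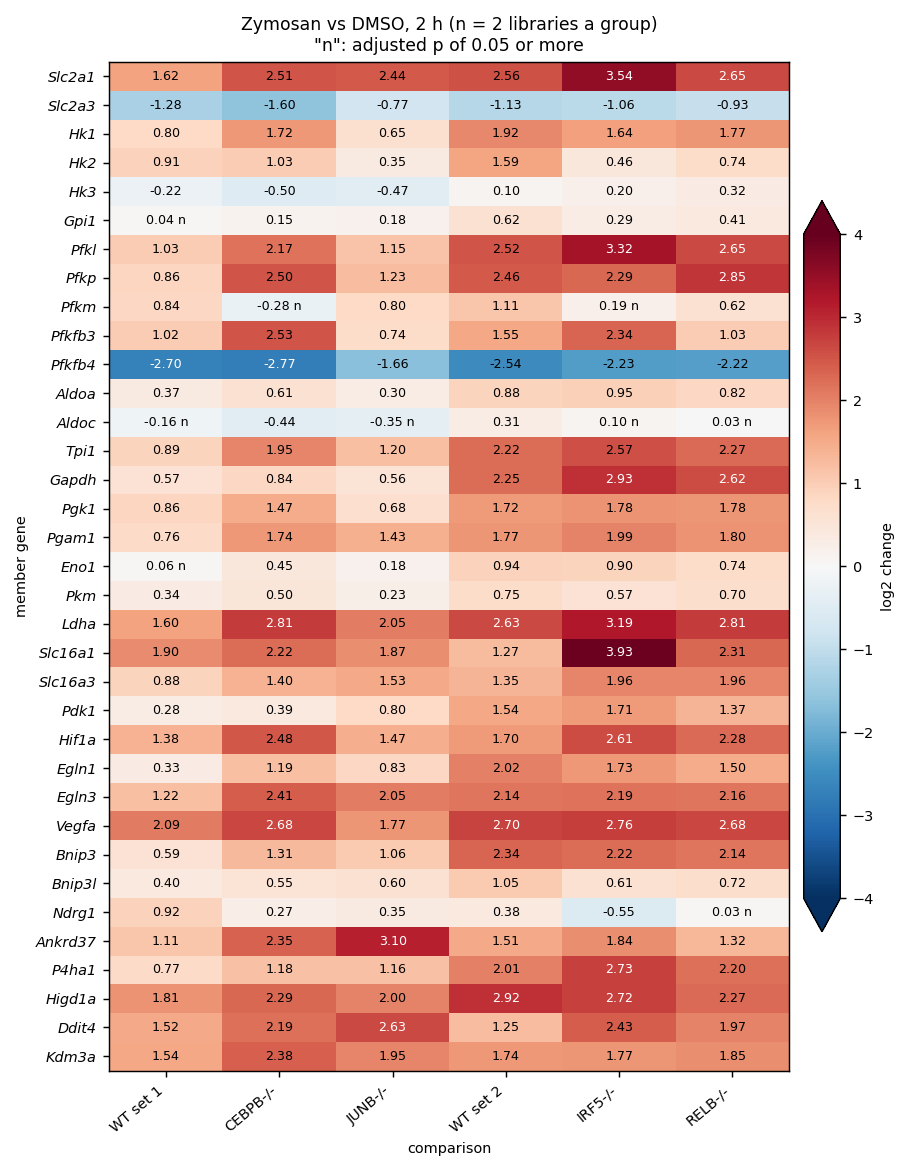
Heat map of the log2 change with zymosan for the 35 members tested (vertical) in the 6 lines that received it (horizontal), with an "n" where the edgeR adjusted p was 0.05 or more. Most cells are in the colour of a rise in every column, while Slc2a3 and Pfkfb4 are in the colour of a fall throughout.

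Glucose entry changed in composition. Slc2a1 went from 354 and 351 CPM with DMSO to 1101 and 1070 with zymosan in set 1, and from 295 and 286 to 1727 and 1709 in set 2. The changes were 1.62 ± 0.033 (SE, edgeR adjusted p = 5.61e-45, 3.08-fold) and 2.56 ± 0.021 (5.91-fold). Slc2a3 went the other way, from 359 and 338 to 140 and 145 CPM and from 485 and 499 to 224 and 226, a fall of 2.44-fold and 2.18-fold. Per kilobase of gene length, Slc2a1 made up 67.7% ± 0.84 (SD, n = 2) of the pair with DMSO and 94.0% ± 0.26 with zymosan in set 1. In set 2 its share went from 55.0% ± 1.1 to 94.0%.

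Hexokinases, which trap glucose as its phosphate, moved unequally. Hk1 went from 146 and 157 to 273 and 256 CPM in set 1 and from 117 and 119 to 438 and 453 in set 2, with changes of 0.80 and 1.92. Hk2 went from 123 and 120 to 225 and 232 and from 86.0 and 87.7 to 259 and 264, with changes of 0.91 and 1.59. Hk3, the hexokinase of granulocytes, was lower in set 1 (-0.22) and higher in set 2 (0.10), and its share of the 3 per kilobase went from 61.4% to 42.8% and from 61.98% to 34.1%.

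The phosphofructokinases rose in both sets. Pfkl went from 191 and 205 to 412 and 395 CPM in set 1 and from 116 and 111 to 653 and 643 in set 2, a rise of 2.04-fold and 5.72-fold. Pfkp, the platelet type, went from 160 and 163 to 293 and 295 and from 91.6 in both to 501 and 508, with changes of 0.86 and 2.46. Pfkm, the muscle type, stayed low, at 3.08 and 3.68 CPM before and 6.40 and 5.76 after in set 1, and rose by 0.84 and 1.11. Their bifunctional regulators parted: Pfkfb3 rose from 112 and 115 to 230 and 230 CPM and from 121 and 115 to 348 and 343, with changes of 1.02 and 1.55. Pfkfb4 fell from 156 and 166 to 25.4 and 24.2 CPM (6.51-fold) and from 186 and 187 to 33.4 and 30.8 (5.82-fold), the largest fall of the group in both sets. The share of Pfkfb3 in the pair per kilobase went from 31.2% to 85.7% in set 1 and from 29.0% to 87.4% in set 2.

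**Figure D4:**
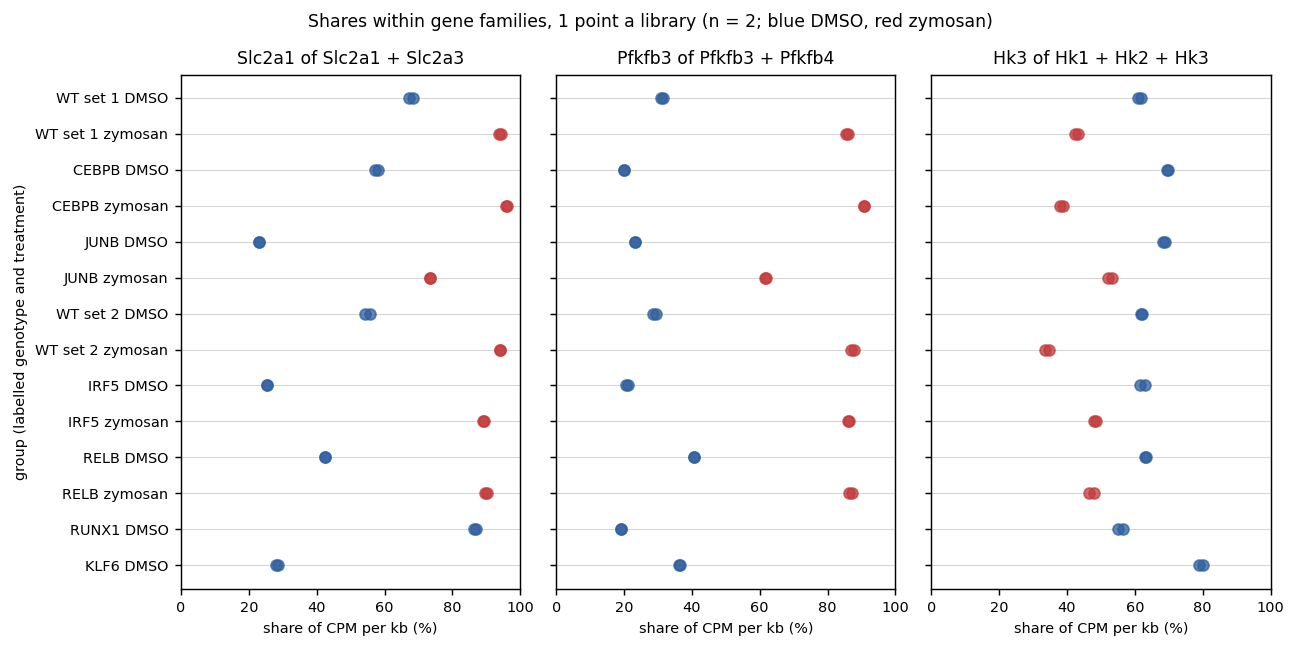
Share of 1 gene in its family, in percent of the summed CPM per kilobase, for each cultured library: Slc2a1 of Slc2a1 and Slc2a3, Pfkfb3 of Pfkfb3 and Pfkfb4, and Hk3 of the 3 hexokinases. Blue points are DMSO and red points zymosan libraries, and in each line that received both, the red points lie above the blue ones for Slc2a1 and Pfkfb3 and below them for Hk3.

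The other enzymes had smaller changes in set 1 than in set 2, a difference not tested between the separately scaled tables. Tpi1, triose phosphate isomerase, went from 396 and 412 to 762 and 729 CPM in set 1 and from 241 in both to 1116 and 1133 in set 2, with changes of 0.89 and 2.22. Pgk1 and Pgam1, of lower glycolysis, rose by 0.86 and 0.76 in set 1 and by 1.72 and 1.77 in set 2. Gapdh rose by 0.57 and 2.25, on levels that differed widely between the sets. Aldoa, Pkm and Eno1 had log2 changes of 0.37, 0.34 and 0.06 in set 1 and of 0.88, 0.75 and 0.94 in set 2, and Gpi1 of 0.04 and 0.62. Of these, Eno1 (adjusted p = 0.0981) and Gpi1 (adjusted p = 0.212) did not pass edgeR's test in set 1, nor did the neuronal aldolase Aldoc (-0.16, adjusted p = 0.0721).

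Lactate genes rose in both sets. Ldha went from 580 and 591 to 1823 and 1718 CPM in set 1 and from 487 and 480 to 3031 and 2967 in set 2, a rise of 3.02-fold and 6.20-fold. Slc16a3 went from 394 and 402 to 750 and 716 and from 573 and 567 to 1470 and 1447, with changes of 0.88 and 1.35. Slc16a1, the transporter MCT1, went from 8.01 and 7.30 to 27.7 and 29.3 CPM and from 6.61 and 6.44 to 15.7 and 15.8. The rise of Slc16a1 was thus large in proportion (1.90 and 1.27) at a level far below that of Slc16a3. Pdk1 rose by 0.28 in set 1 and 1.55 in set 2.

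Of the oxygen sensor, Hif1a went from 458 and 436 to 1141 and 1178 CPM in set 1 and from 446 and 453 to 1473 and 1456 in set 2, with changes of 1.38 ± 0.033 and 1.70 ± 0.020 (SE). Egln3 went from 210 and 210 to 493.4 and 481 and from 274 and 272 to 1207 and 1190, with changes of 1.22 and 2.14, and Egln1 rose by 0.33 and 2.02. Vegfa went from 103 and 104 to 443 and 438 CPM (4.25-fold) and from 66.0 and 66.2 to 428 and 429 (6.48-fold). Zymosan and DMSO libraries of these genes did not overlap in either set. With 2 libraries a group and a small spread between them, many genes can be free of overlap, and their share was not counted.

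Among the other hypoxia targets, Higd1a, a mitochondrial protein, rose most in set 2, from 16.4 and 17.5 to 126 and 131 CPM (7.58-fold), and from 19.2 and 17.7 to 63.7 and 65.4 in set 1. Kdm3a, a histone demethylase, went from 139 and 133 to 401 and 394 and from 125 and 128 to 419 and 422. Ddit4, an inhibitor of mTORC1 signalling, went from 45.7 and 44.5 to 128 and 131 CPM in set 1 and from 252 and 234 to 552 and 600 in set 2. Ankrd37 went from 49.6 and 47.4 to 109 and 101 and from 68.8 and 70.1 to 206 and 189. Bnip3, Bnip3l, P4ha1 and Ndrg1 rose by 0.59, 0.40, 0.77 and 0.92 in set 1 and by 2.34, 1.05, 2.01 and 0.38 in set 2.

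The 4 other lines that received zymosan moved the same way in most members. With zymosan, 30 of 35 members rose (35.1%) and 4 fell (38.4%) in the libraries labelled CEBPB-/-, 31 (36.5%) and 3 (36.7%) in those labelled JUNB-/-, 30 (34.3%) and 3 (35.4%) in those labelled IRF5-/- and 31 (35.2%) and 2 (37.5%) in those labelled RELB-/-. At least 2-fold, 22 rose (22.7%) and 2 fell (21.1%) in CEBPB-/-, 17 (22.5%) and 1 (17.2%) in JUNB-/-, 23 (17.8%) and 2 (18.4%) in IRF5-/-, and 23 (17.7%) and 1 (19.8%) in RELB-/- labelled cells. Monocyte and macrophage markers went from 1237 to 1945 CPM in CEBPB-/-, 858 to 1074 in JUNB-/-, 631 to 1261 in IRF5-/- and 842 to 1229 in RELB-/- labelled cells, and their part was not tested. Median changes of the members were 1.39, 0.83, 1.84 and 1.78, against -0.09, -0.01, -0.02 and -0.05 over all genes. Over the 6 responses, 27 members rose in all (21.5% of the 12395 genes tested in both sets) and 11 rose at least 2-fold in all (10%): Slc2a1, Pfkl, Ldha, Slc16a1, Hif1a, Egln3, Vegfa, Higd1a, Ankrd37, Ddit4 and Kdm3a. Slc2a3 and Pfkfb4 fell in all 6 (22.3%), Pfkfb4 at least 2-fold in each (6.65%). Ndrg1, a stress-induced gene, fell by 0.55 on the log2 scale in the libraries labelled IRF5-/- and differed by 0.03 in those labelled RELB-/-, where it did not pass.

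The lines were then compared with their wild type within a treatment, where the comparisons of a set share the wild-type libraries. With DMSO, members were lower more often than higher in the lines labelled IRF5-/-, RELB-/-, RUNX1-/- and KLF6-/-, higher more often in JUNB-/- and mixed in CEBPB-/-. With zymosan they were mostly higher in CEBPB-/- and JUNB-/- and mostly lower in IRF5-/- and RELB-/- labelled cells. These directions hold for TMM scaling and were not tested with total counts. Tpi1 held 16975 of 27.34 M counts in JUNB-/- DMSO library 1 and 16803 of 26.53 M in that of wild type, a lower share. Its scaled levels were 570 and 396 CPM. Pgk1 held 23564 of 22.7 M in CEBPB-/- zymosan library 1 and 23822 of 22.24 M in that of wild type, also a lower share, with 1572 and 1089 CPM scaled.

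**Figure D5:**
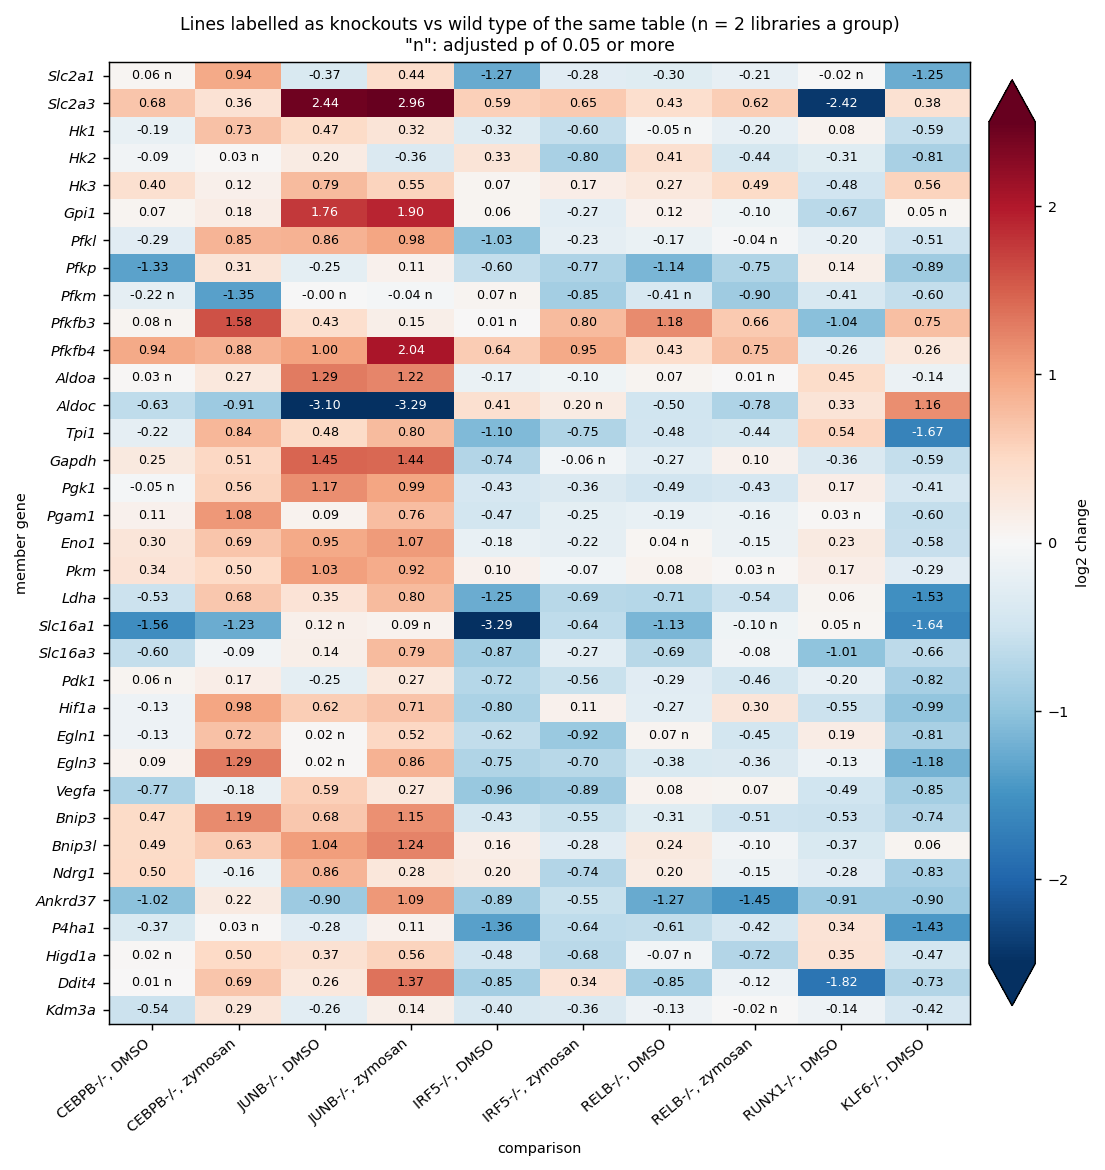
Heat map of the log2 change of each labelled line against its wild type for the 35 members tested (vertical), in 10 comparisons by line and treatment (horizontal), with an "n" where the edgeR adjusted p was 0.05 or more. The column of the line labelled KLF6-/- is in the colour of a lower level in most members, and those of the line labelled JUNB-/- in the colour of a higher one.

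In the libraries labelled CEBPB-/-, 12 of 35 members were higher (33.6%) and 15 lower (36.9%) with DMSO, of which 3 at least 2-fold lower (18.9%): Pfkp (-1.33), Slc16a1 (-1.56) and Ankrd37 (-1.02). With zymosan 27 were higher (35%) and 6 lower (32.9%), and at least 2-fold 4 were higher (9.38%) and 2 lower (18.3%). The 4 were Pfkfb3, Egln3, Bnip3 and Pgam1, with changes of 1.58, 1.29, 1.19 and 1.08, and the 2 were Pfkm (-1.35) and Slc16a1 (-1.23). Pfkfb3 had stood at 119 and 120 CPM with DMSO and reached 689 and 691 with zymosan, where wild type reached 230 and 230. The zymosan response itself was larger than in wild type by at least 2-fold in 8 members (7.26%), Pfkp (1.65), Pfkfb3 (1.51), Ankrd37 (1.24), Ldha (1.22), Egln3 (1.195), Pfkl (1.14), Hif1a (1.11) and Tpi1 (1.06), and smaller in Pfkm (-1.12, 3.94%). Hif1a, for example, went from 403 and 415 to 2256 and 2313 CPM in this line.

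In the libraries labelled JUNB-/-, 24 members were higher (35.4%) and 7 lower (41.1%) with DMSO, and 31 (39.1%) and 2 (37.4%) with zymosan. At least 2-fold, 8 were higher (11%) and 1 lower (24.4%) with DMSO, and 10 (15.8%) and 1 (23.1%) with zymosan. Slc2a3 stood out in size, at 1894 and 1886 CPM against 359 and 338 in wild type with DMSO (2.44 ± 0.034, SE) and at 1101 and 1116 against 140 and 145 with zymosan (2.96 ± 0.037). Its line still lost Slc2a3 with zymosan, and the share of Slc2a1 in the pair went from 22.9% to 73.3%. Gpi1 stood at 1917 and 1894 CPM against 550 and 573 with DMSO (1.76), and Gapdh, Aldoa, Pgk1, Bnip3l, Pkm and Pfkfb4 were higher by 1.45, 1.29, 1.17, 1.04, 1.03 and 1.00. With zymosan Pfkfb4 (2.04), Gpi1 (1.90), Gapdh (1.44), Ddit4 (1.37), Bnip3l (1.24), Aldoa (1.22), Bnip3 (1.15), Ankrd37 (1.09) and Eno1 (1.07) joined Slc2a3. Aldoc was lower in both treatments, by 8.59-fold with DMSO, at 2.32 and 2.04 CPM against 17.6 and 20.0. The zymosan response differed by at least 2-fold upward (8.91%) in Ankrd37 (1.99), Ddit4 (1.10) and Pfkfb4 (1.04), the last being a smaller fall.

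In the libraries labelled IRF5-/-, 9 members were higher (35%) and 24 lower (29.6%) with DMSO, and 6 (29.6%) and 27 (30.8%) with zymosan. At least 2-fold lower with DMSO were 6 (14%): Slc16a1 (9.81-fold lower), P4ha1 (-1.36), Slc2a1 (-1.27), Ldha (-1.25), Tpi1 (-1.10) and Pfkl (-1.03). Slc2a1 stood at 120 and 122 CPM against 295 and 286, and Ldha at 203 and 205 against 487 and 480. With zymosan no member differed by 2-fold, Slc2a1 reaching 1422 and 1399 CPM against 1727 and 1709, and 25 members had an interaction that passed edgeR's test (33.3% of all genes). Interactions of at least 2-fold upward (4.06%) were those of Slc16a1 (2.66) and Ddit4 (1.19), and downward (3.67%) that of Hk2 (-1.13), which went from 111 and 107 to 148 and 152 CPM.

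In the libraries labelled RELB-/-, 11 members were higher (32.1%) and 19 lower (27.3%) with DMSO, and 7 (27.1%) and 23 (28.9%) with zymosan. Pfkfb3 was the 1 member at least 2-fold higher with DMSO (4.04%), at 268 and 268 CPM against 121 and 115 (1.18). Ankrd37 (-1.27), Pfkp (-1.14) and Slc16a1 (-1.13) were at least 2-fold lower with DMSO (11.1%), and Ankrd37 also with zymosan (-1.45, 12.8%), at 72.5 and 71.8 CPM against 206 and 189. The interaction reached 2-fold in Slc16a1 only (1.03, 2.63%), on levels of 2.51 and 3.47 CPM with DMSO.

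In the libraries labelled RUNX1-/-, with DMSO only, 12 members were higher (38.2%) and 20 lower (37.1%), with 4 at least 2-fold lower (15.1%). Slc2a3 stood at 137 and 136 CPM against 719 and 739 (5.34-fold lower, edgeR adjusted p = 5.25e-40) while Slc2a1 stood at 435 and 417 against 438 and 424 (-0.02 ± 0.024, SE), so that Slc2a1 made up 86.6% of the pair. Ddit4 stood at 99.8 and 103 CPM against 374 and 346 (3.54-fold lower), Pfkfb3 at 83.9 and 85.8 against 179 and 171 (-1.04), and Slc16a3 at 427 and 412 against 850 and 839 (-1.01). Tpi1, Aldoa and Higd1a were higher, by 0.54, 0.45 and 0.35.

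In the libraries labelled KLF6-/-, 6 members were higher (31.2%) and 28 lower (35%), with 1 at least 2-fold higher (4.75%) and 6 at least 2-fold lower (15.6%). Tpi1 stood at 111 and 113 CPM against 357 and 357 (3.18-fold lower), Ldha at 243 and 254 against 723 and 710 (2.88-fold lower), and Slc2a1 at 180 and 183 against 438 and 424 (-1.25). Slc16a1 (-1.64), P4ha1 (-1.43) and Egln3 (-1.18) were lower as well, and Hif1a stood at 332 and 339 CPM against 661 and 670 (-0.99). The members that were higher were Aldoc (1.16), Pfkfb3 (0.75), Hk3 (0.56), Slc2a3 (0.38), Pfkfb4 (0.26) and Bnip3l (0.06). The median change over members was -0.60.

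Over the other comparisons with DMSO the median was 0.01 for CEBPB-/-, 0.43 for JUNB-/-, -0.47 for IRF5-/-, -0.19 for RELB-/- and -0.20 for RUNX1-/- labels, and with zymosan 0.50, 0.76, -0.36 and -0.15 for the first 4. Markers of other cells moved with the lines. Eosinophil and mast cell markers, mostly Prg2, summed to 1272 to 1499 CPM in set 1 wild type against 287 to 405 and 129 to 166 in the libraries labelled CEBPB-/- and JUNB-/-. In set 2 they summed to 3374 to 5436 CPM in wild type, 520 to 939 in IRF5-/- and 241 to 405 in RELB-/- labelled libraries, and in the later table to 4993 to 5111 in wild type, 483 to 502 in RUNX1-/- and 406 to 420 in KLF6-/- labelled libraries. The 8 neutrophil markers summed to 20560 to 27200 CPM in set 1 wild type, 44290 to 57080 in CEBPB-/- and 68400 to 80490 in JUNB-/- labelled libraries, and to 69310 to 72590 in later wild type, 19320 to 19620 in RUNX1-/- and 80750 to 85030 in KLF6-/- labelled libraries. Their part in the differences of the members was not tested.

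Neighbouring pathways, taken from lists of genes outside the group, held genes of both directions in the wild-type zymosan response. The shares of all genes that rose and fell in these responses, given above beside the members, apply here too. Several of the counts lie near those shares, so they are not read as results about a pathway. Of other glycolysis genes, 2 rose and 5 fell among 12 tested in set 1, and 3 rose and 4 fell among 14 in set 2, with the transporter Slc2a6 at 1.42 and 1.36, Pfkfb2 at -1.08 and -0.69 and Ldhc at 0.86 and 1.15. Of the pentose phosphate pathway, which supplies NADPH, 1 rose and 6 fell among 9 in each set, with H6pd at -1.54 and -2.14, G6pdx at -1.01 and -0.38 and Pgd at -0.42 and -0.77. Of glycogen genes, 3 rose and 7 fell among 13 in set 1, and 7 rose and 5 fell in set 2. The glycogen synthase Gys1 had log2 changes of -0.35 in set 1 and 2.25 in set 2, Pgm1 of -0.08 and 2.19, the phosphorylase kinase subunit Phkg2 of -1.54 and -1.19 and the phosphorylase Pygl of -0.87 and -0.29. Pyruvate entry genes split into 5 higher and 5 lower among 12, and 4 and 4 among 11, led by Dld at 1.77 and 2.33, with Pdha1 at -0.56 and -0.73 and the low-count Pdk2 at -2.79 in set 1. Of hypoxia sensing genes 4 rose and 4 fell in set 1, and 5 rose and 3 fell in set 2, of 11 each, with the ubiquitin ligase Siah2 at 2.61 and 2.60, Vhl at 1.06 and 1.19 and the low-count Hif3a at -1.81 and 0.50. Other hypoxia targets rose in 12 and fell in 8 of 24 in set 1, and rose in 16 and fell in 5 of 25 in set 2, with Bhlhe40 at 2.64 and 2.59 and Ak4 at 2.00 and 4.31.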

How the data were processed

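The members and gene lists were chosen with earlier results of these data known. RNA was measured by RNA-seq in 43 libraries and open chromatin by ATAC-seq in 8. Per the file headers, the authors made the deposited counts with featureCounts 1.5.0-p2 (tissues, unstranded) and 1.6.3 (cultured cells, reverse-stranded) from uniquely mapped read pairs, and STAR is named in the submitters' processing notes. The deposited tables also give each gene's length in bases, a unit of its own used only for shares within a family. Reads shared by near-identical genes are lost in such counts. Of the set 1 table, 18 columns matched no sample and were not used. The authors' deposited lists of differing sites give a -log10 adjusted p per site, and their merged list gives a score and a number of peaks per site; cutadapt, Bowtie2, MACS2, deepTools and DESeq2 are named in the submitters' processing notes.

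From the counts, edgeR 4.0.16 (R 4.3.3) fitted all groups of a table together, without a block, after a filter on low counts (minimum count 10, minimum total 15, proportion 0.7) and TMM scaling, with p-values adjusted over all genes tested (tissues 12330, set 1 12899, set 2 13779, and 13608 in the later one). Tables were fitted separately, and 50376 of 50600 IDs had a symbol. Python 3.11.15 with pandas 2.3.3, numpy 2.4.6 and matplotlib 3.10.9 did the rest. A site was assigned to a gene within 50000 bases of its start. On simulated counts the fit called 75% of 2-fold changes in set 1 (12159 genes), 87% in set 2 (13201 genes) and 80.4% in the later table (13228 genes).

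Alternatives were DESeq2 1.42.0, size-factor scaling (RLE), no filter, only the compared groups, a replicate block, leaving out each library, and other site windows. All members were described by role. Given in full were those with a 2-fold call in a wild-type zymosan response or in at least 2 knockout comparisons, up to 3 with the largest change in a tissue comparison, and Hif1a, Slc2a1, Slc2a3, Hk2, Pfkfb3, Ldha, Slc16a3 and Vegfa; of each pathway list, those with the largest called changes were named, with further genes chosen after their values were seen, and 1 gene is not reported here.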

Additional observations from a re-analysis of the deposited data

Results flagged for a closer look

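Within a tissue, 12 of 68 tested sets of 5 libraries had 1 library far from the other 4 on the log2(CPM + 1) scale. For normally spread values this happens in about 1 in 20 sets, but tissue libraries varied widely and many held 0 reads. The share over all genes was not counted, so no excess of the members can be read from this. In exudate, library 5 was low for Hk2 (0.76, next 7.07) and Kdm3a (0, next 5.78), library 1 was low for Gpi1 (0.14, next 5.42) and high for Slc16a1 (2.06), and library 4 was low for Pfkfb4 (1.05, next 5.23) and high for Bnip3 (6.76). In blood, library 1 was high for Slc16a1 (3.62) and Egln1 (4.55) and low for Bnip3l (0, next 4.57). Blood library 2 was high for Ankrd37 (5.32), library 3 for Pfkm (3.91), and library 5 was low for Ndrg1 (0, next 3.68).

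The zymosan response differed from that of wild type by at least 2-fold in 16 of 140 tests of a member in a line, by edgeR's interaction test. In the line labelled CEBPB-/- the log2 differences were 1.65 for Pfkp, 1.51 for Pfkfb3, 1.24 for Ankrd37, 1.22 for Ldha, 1.195 for Egln3, 1.14 for Pfkl, 1.11 for Hif1a, 1.06 for Tpi1 and -1.12 for Pfkm. In the line labelled JUNB-/- they were 1.99 for Ankrd37, 1.10 for Ddit4 and 1.04 for Pfkfb4. In the line labelled IRF5-/- they were 2.66 for Slc16a1, 1.19 for Ddit4 and -1.13 for Hk2, and in the line labelled RELB-/- 1.03 for Slc16a1. Of all genes, 7.26% differed so upward and 3.94% downward in CEBPB-/-, and 8.91% upward in JUNB-/-. The shares were 4.06% upward and 3.67% downward in IRF5-/-, and 2.63% upward in RELB-/-. Members lay near these shares in JUNB-/- (3 of 35), IRF5-/- (3 of 35) and RELB-/- (1 of 35). In CEBPB-/- (9 of 35) they lay above them, a gap not tested. The pooled count is therefore not read as particular to the members.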

How the results depend on the processing

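Tissue calls depended on the model. DESeq2 called 1 member in blood against bone marrow, 1 in exudate against blood, and 5 each in exudate and membrane against bone marrow, where edgeR called 0. In each of these comparisons the share of members called by DESeq2 was below that of all genes given above. Without the filter on low counts 1 member, Egln3, was called in blood, exudate and membrane against bone marrow. With a block by the tag and number of the column names, 1, 1 and 3 were called there (Egln3, with Ankrd37 and Hif1a in membrane), and with only the compared groups 2 in membrane (Egln3 and Hif1a). Leaving out 1 library gave 0 to 1 in exudate against bone marrow, the 1 being Egln3 without exudate library 5. No share of all genes is given for the fits without the filter, with only the compared groups or with 1 library left out. Those calls are therefore not read as particular to the members.

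Counts of members free of overlap moved under settings chosen after seeing the data. With total-count scaling, blood lay above bone marrow in 2 members (2.11% of all genes), exudate below blood in 1 (2.49%) and below bone marrow in 2 (11.1%), and membrane below bone marrow in 4 (21.4%). Exudate then lay above bone marrow in 4 members (2.26%), without Slc16a3. Membrane lay above bone marrow in 16 (10.9%), without Hk1, Hk2 and Bnip3. Without blood libraries 1 and 2, blood lay below bone marrow in 2 (4.63%), exudate above blood in 2 (2.16%) and below in 1 (6.03%), and membrane above blood in 15 (10.1%) and below in 3 (16.4%). Without exudate library 5, exudate lay above blood in 3 (2.13%, with 0 members otherwise) and above and below bone marrow in 9 (7.06%) and 2 (11.6%). Within tag 100, blood lay above bone marrow in 7, exudate above and below blood in 9 and 7 and above and below bone marrow in 14 and 5. Within tag 300, exudate lay above and below blood in 4 and 2, membrane above and below blood in 15 and 3, and exudate below membrane in 8.

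In cultured cells, 2-fold interactions of the line labelled JUNB-/- numbered 1 with RLE scaling and with DESeq2 (3 otherwise), and 1 to 3 with 1 library left out, 1 without JUNB-/- DMSO library 2 or wild-type DMSO library 1. Members 2-fold different with zymosan in the line labelled IRF5-/- numbered 1 with RLE or DESeq2 and 0 to 1 with 1 library left out. Interactions numbered 3 to 5 for IRF5-/- and 0 to 1 for RELB-/-, the 0 without RELB-/- DMSO library 1. With only the compared groups, Pfkfb3 in IRF5-/- against wild type with DMSO turned to -0.071 (0.01 otherwise) and the Vegfa interaction of RELB-/- to 0.11; with 1 library left out the latter ran from -0.0216 to 0.11. A differing site lay within 10 kb of 15 members (41.7%, against 24% of all genes with a merged site there) and within 50 kb of 25. For the other counts no share of all genes is given, and the cause of these changes was not tested. Between groups, libraries of the same replicate number, or in tissues of the same tag and number, had correlations of -0.0385 to 0.0739. In tissues, with a coefficient of variation of 1.86, these cannot decide whether libraries came from the same mice. With the replicate block 40 of 40 counts of members stayed within 1.5 times and 304 named changes kept their side of the threshold. The call of 1 was lost (Hk2, CEBPB-/- against wild type with DMSO, -0.09, edgeR adjusted p = 0.0565).

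RLE scaling shifted the median of all genes by up to -0.458 in tissues (exudate against bone marrow), 0.126 in the set 1 wild-type zymosan response, 0.107 in CEBPB-/- zymosan libraries and -0.11 in the JUNB-/- interaction.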
